A study of Homo sapiens with 15 samples.

Results

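IGROV-CP20, a human ovarian cancer line that is resistant to cisplatin, was exposed to Telmisartan or to Amphotericin B before cisplatin, and the transcripts of the 2 combinations were compared directly. The comparison rests on 6 of the 15 libraries of the series, 3 per drug, taken by their labels. It was chosen with earlier results of these data known. Each drug was given at 10 µM for 24 h, cisplatin followed at 50 µM for a further 24 h, and libraries were prepared from total RNA with the QuantSeq 3′ mRNA kit, which counts the ends of polyadenylated transcripts. Cells with 50 µM cisplatin alone for 24 h and untreated cells, 3 libraries each, are given as background, and the 3 libraries with Tranilast and cisplatin appear only where a Telmisartan library resembled them. No library analysed here held a drug without cisplatin, and both arms came from 1 cell line. The labels name the replicates as biological without saying how cultures were separated, so the p-values measure only the spread between these libraries.

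Cisplatin binds DNA and cross-links its strands, and cells respond through repair, p53 and cell cycle control. Telmisartan blocks the angiotensin II receptor AGTR1 and partly activates the nuclear receptor PPARG. Amphotericin B is an antifungal polyene that binds membrane sterols, ergosterol more strongly than cholesterol, and can form pores that pass ions. The question was how far 2 drugs with such different targets left different transcript levels in cells that then met the same dose of cisplatin.

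The label of the line fits its epithelial markers only in part. KRT18 (105 to 209 CPM, counts scaled to a common library size after TMM normalization), KRT8 (7.14 to 20.1 CPM), EPCAM (11.2 to 25 CPM) and KRT19 (1.53 to 5.96 CPM) were present in all 6 libraries, whereas WT1 and CLDN3 had 0 counts in each and PAX8, KRT7 and CDH6 at most 1. The endothelial markers VWF and CDH5 and the lymphocyte markers CD3E and CD79A were at 0 in all 6. Of 5 immune markers, PTPRC alone was above 1 CPM in every library (3.87 to 12.8 CPM), and their summed level did not overlap between the drugs, at 5.52 to 9.7 CPM with Telmisartan and 13.4 to 15.6 CPM with Amphotericin B. Of 5 fibroblast markers, COL1A1 was present in all 6 (11.2 to 30.6 CPM), and their sum was 15.3 to 31.1 and 16.4 to 21.3 CPM. The part of these transcripts in the results was not tested. A count of 0 in a library allows a share of up to between 0.000101% and 0.000199% of its counts. Counting intervals and floors cover counting error only.

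Telmisartan replicate 3 stood apart from the other 5 libraries before any test. Its mitochondrial ribosomal RNA made up 3.61% of counts, against 10.8% and 12.9% in Telmisartan replicates 1 and 2 and 12.3% to 14.8% with Amphotericin B. Its total was 2983548 counts, against 2222109 and 2211259 for the other Telmisartan libraries and 1510620 to 1872639 with Amphotericin B. Its nearest library among the 15 was Tranilast replicate 1, at a root mean square difference of 0.41 log2 CPM. Its mean difference was 0.458 from the Tranilast libraries, 0.768 from those with cisplatin alone, 0.816 from its own group and 1.047 from the Amphotericin B libraries. Cisplatin replicate 3 lay at 0.532 from it. Mitochondrial ribosomal RNA also differed among the libraries with cisplatin alone, at 13.7%, 5.61% and 3.41%. Whether Telmisartan replicate 3 carries its own label was not tested. Many list counts and medians, and the log2 fold changes of some genes, are given below also without it. A gene or list shown without such a value may depend on this library too.

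Among the other libraries, distances between the drugs were of like size to those within Amphotericin B over all 11113 genes tested. The distance within Telmisartan was smaller. Telmisartan replicates 1 and 2 differed from each other by 0.549 log2 CPM and from the Amphotericin B libraries by 0.69 to 0.712. Amphotericin B libraries differed among themselves by 0.71 to 0.743, so each of the 3 lay closer to a Telmisartan library than to another of its own group. This held over a gene set that includes low counts. Over genes at a mean of at least 5 log2 CPM, with all 6 libraries, the mean difference was 0.40 within Amphotericin B, 0.579 within Telmisartan and 0.58 between the drugs. The first principal component held 44.9% of the variance of the 6 libraries. On it Telmisartan replicate 3 scored 0.692, Telmisartan replicates 1 and 2 scored 0.064 and 0.027, and the Amphotericin B libraries scored −0.317, −0.145 and −0.322, so that the drugs did not overlap. The second component, with 17.6%, set Amphotericin B replicate 2 (−0.471) against the other 5 libraries (0.015 to 0.169).

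**Figure D1:**
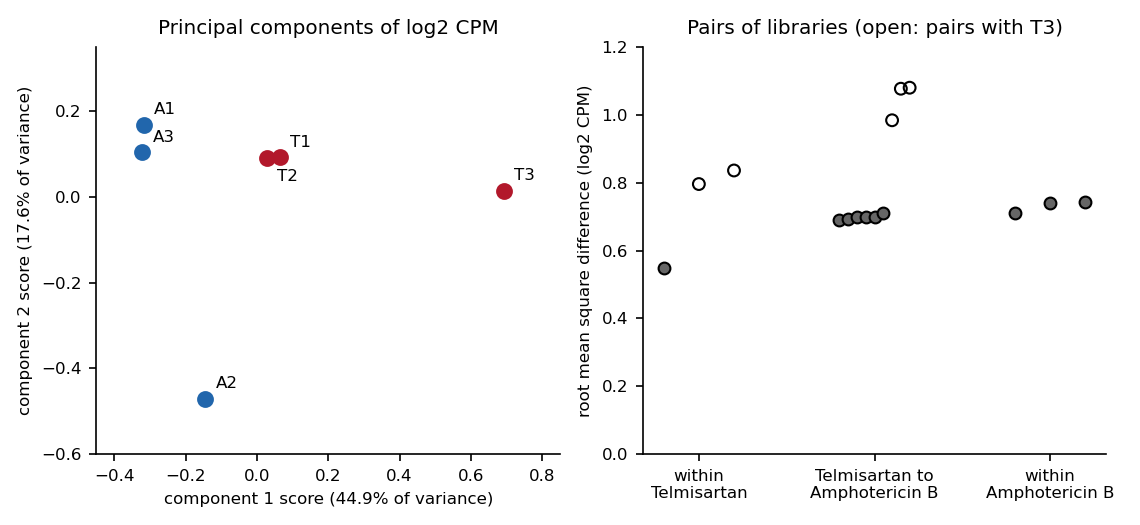
Left, scores of the 6 libraries (T, Telmisartan; A, Amphotericin B; number, replicate) on the first 2 principal components of log2 CPM; right, root mean square difference in log2 CPM for each pair of libraries, 1 point per pair, open where the pair holds Telmisartan replicate 3. The filled points between the drugs (0.69 to 0.712) sit below those within Amphotericin B (0.71 to 0.743) apart from a small overlap, and the open ones reach 1.08.

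With all 6 libraries, no gene differed between the drugs at an adjusted p under 0.05 in edgeR's quasi-likelihood test (0 of 11113, 0.0%), where the smallest adjusted p was 0.0659. At an unadjusted p under 0.05 the same test gave 1451 genes higher with Telmisartan (13.1%) and 832 lower (7.49%), and at an adjusted p under 0.1 it gave 96 and 25. At an adjusted p under 0.05, DESeq2 called 184 genes, the likelihood ratio test of edgeR 460, and limma-voom 2, or 7 once libraries were weighted by quality. The 3 Telmisartan libraries lay all above the 3 Amphotericin B libraries for 1390 genes (12.5%) and all below for 1096 (9.86%). The fold change passed 2 for 1161 genes (10.4%), of which 724 were higher with Telmisartan, but only 241 of these genes had a mean of at least 4 log2 CPM. The median size of the log2 fold change was 0.378 and the median standard error (SE) 0.319, so a typical 95% interval reached 0.669 to either side.

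**Figure D2:**
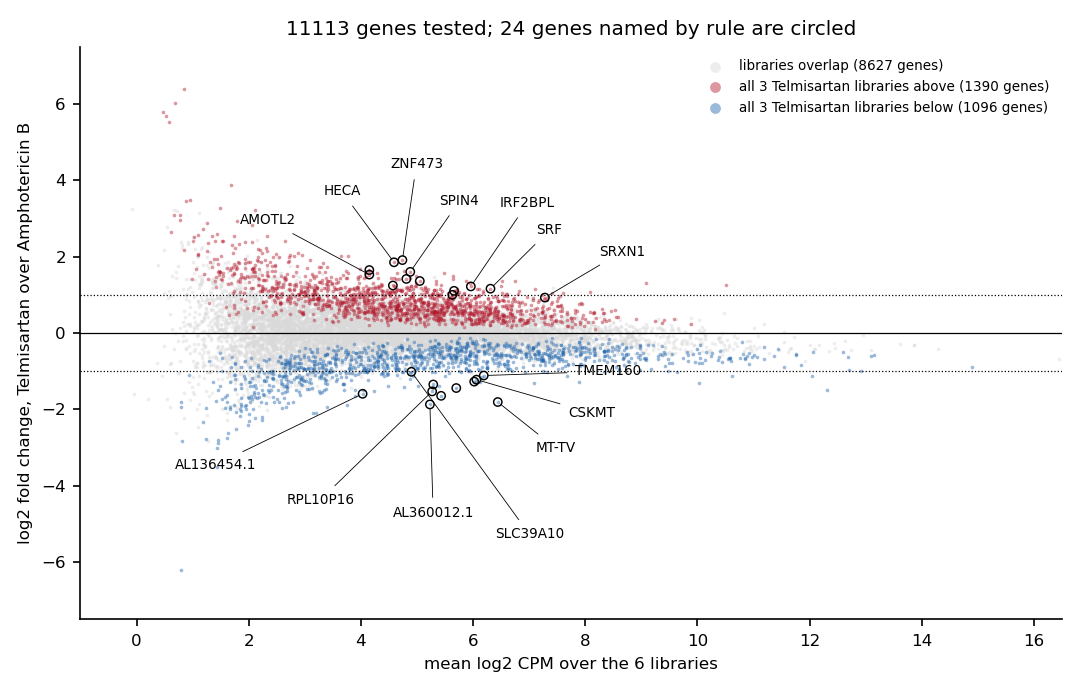
Log2 fold change of Telmisartan over Amphotericin B against mean log2 CPM for each gene tested, with genes whose 3 libraries per drug do not overlap in red (1390, Telmisartan above) or blue (1096, below); dotted lines mark a fold of 2 and circles the 24 genes chosen by size or p at a mean of at least 4 log2 CPM. The circled genes sit between −1.87 and 1.91, and the larger fold changes belong to genes at lower levels.

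Of the 13 genes at a higher level with Telmisartan chosen by p or size, 12 were protein-coding. This is near the share over all genes tested (10068 nuclear protein-coding genes of 11113). These genes had various known roles. SRF, the transcription factor of immediate early and actin genes, measured 108, 133 and 114 CPM with Telmisartan and 49.8, 56.9 and 51.4 CPM with Amphotericin B. The lowest Telmisartan library was thus well above the highest Amphotericin B library. The log2 fold change was 1.16 ± 0.24 (SE, adjusted p = 0.0936 in edgeR's quasi-likelihood test) and 1.19 without Telmisartan replicate 3. AMOTL2, a junction protein and a target of YAP, measured 35.2, 23.2 and 28.6 CPM with Telmisartan and 9.96, 9.62 and 10.4 CPM with Amphotericin B. Its log2 fold change was 1.53 ± 0.32, and 1.54 without replicate 3, so the library that stood apart moved neither gene. Untreated cells held 14.1 CPM ± 0.271 (SD, n = 3) of AMOTL2 and 96.3 CPM ± 15.2 (SD, n = 3) of SRF.

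SRXN1, which encodes sulfiredoxin, an enzyme that repairs oxidised peroxiredoxins, measured 196, 225 and 222 CPM with Telmisartan and 113, 132 and 93.2 CPM with Amphotericin B, again without overlap. Its log2 fold change was 0.93 ± 0.19. The Amphotericin B libraries sat at the level of untreated cells (121 CPM ± 16.2, SD, n = 3), and cisplatin alone stood at 364 CPM ± 73.0 (SD, n = 3). IRF2BPL, a nuclear regulator, measured 83.7, 104 and 99.6 CPM with Telmisartan and 38.4, 58.5 and 26.8 CPM with Amphotericin B, a log2 fold change of 1.22 ± 0.25. HECA measured 36.2, 29.3 and 74 CPM with Telmisartan and 8.53, 19.2 and 11.9 CPM with Amphotericin B. Here Telmisartan replicate 3 was the highest by far, and the log2 fold change of 1.86 was 1.32 without it.

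The other genes of this group were the small GTPase RAB22A of endosomal transport (log2 fold change 1.25), the tyrosine kinase ABL1 (1.42), the tRNA methyltransferase homologue TRMT1L (1.11), the chromatin reader SPIN4 (1.60), BNIP2 (1.36), the histone pre-mRNA processing factor ZNF473 (1.91) and the G1/S cyclin CCNE2 (1.65), with ENSG00000108292, which has no symbol here (1.0). ZNF473 measured 40.3, 44.2 and 67.4 CPM with Telmisartan and 12.1, 16.8 and 11.9 CPM with Amphotericin B. CCNE2 measured 33.7, 20.4 and 37.2 CPM with Telmisartan and 10.7, 10.4 and 8.2 CPM with Amphotericin B, while untreated cells had 2.93 CPM ± 1.47 (SD, n = 3). The libraries of all 13 genes did not overlap, so their direction could hardly turn without replicate 3. Their log2 fold changes without it were 0.90 to 1.64. Adjusted p ranged from 0.0936 to 0.117 in edgeR's quasi-likelihood test. SPIN4 overlaps LINC01278 on the same strand, and on the other strand ZNF473 overlaps VRK3 and CCNE2 overlaps NDUFAF6 and INTS8. How the strand was counted is not given in the sources used here, so reads of such pairs cannot be told apart.

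Stretches upstream of SRF, IRF2BPL and HECA are shown because they hold the letters of known binding sites, of SRF itself or of the CREB and ATF family. They are RefSeq sequences (GRCh38.p14), 120 bases each, 5′ to 3′ on the strand of the gene, and the capitals mark the matches.
SRF: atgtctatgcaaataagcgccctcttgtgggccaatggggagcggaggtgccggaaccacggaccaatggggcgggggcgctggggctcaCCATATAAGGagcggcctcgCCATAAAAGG
IRF2BPL: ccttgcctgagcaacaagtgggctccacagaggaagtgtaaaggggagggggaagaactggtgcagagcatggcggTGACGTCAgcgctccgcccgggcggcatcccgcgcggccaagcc
HECA: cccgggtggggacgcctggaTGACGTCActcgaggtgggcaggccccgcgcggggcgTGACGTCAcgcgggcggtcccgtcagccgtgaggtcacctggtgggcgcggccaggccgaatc

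The SRF stretch lies at chr6:43171149-43171268 (plus strand) and ends 1 base before the annotated start. Its matches to the CArG box, the site that SRF binds in its own and other promoters, begin 30 and 10 bases upstream. The IRF2BPL stretch lies at chr14:77028709-77028828 (minus strand), with the cAMP response element TGACGTCA beginning 44 bases upstream. The HECA stretch lies at chr6:139134920-139135039 (plus strand) and holds the same 8 letters at 140 and 103 bases upstream. Both strands of the 250 bases upstream were searched. Of the 13 genes, 10 had an upstream window, of which 1 held a CArG box and 2 held TGACGTCA, against 1.16% and 1.65% of all 35116 windows. A gene was counted if any of its windows held the motif, whereas the percentages are of single windows, so they are not like for like. The core of the antioxidant response element, TGACNNNGC, which 10.9% of windows hold, was in none of the 10. None of these motifs was found upstream of the 4 genes with a window among the 11 that were higher with Amphotericin B. The motifs were chosen after the values were seen, and a match in letters is a description.

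**Figure D3:**
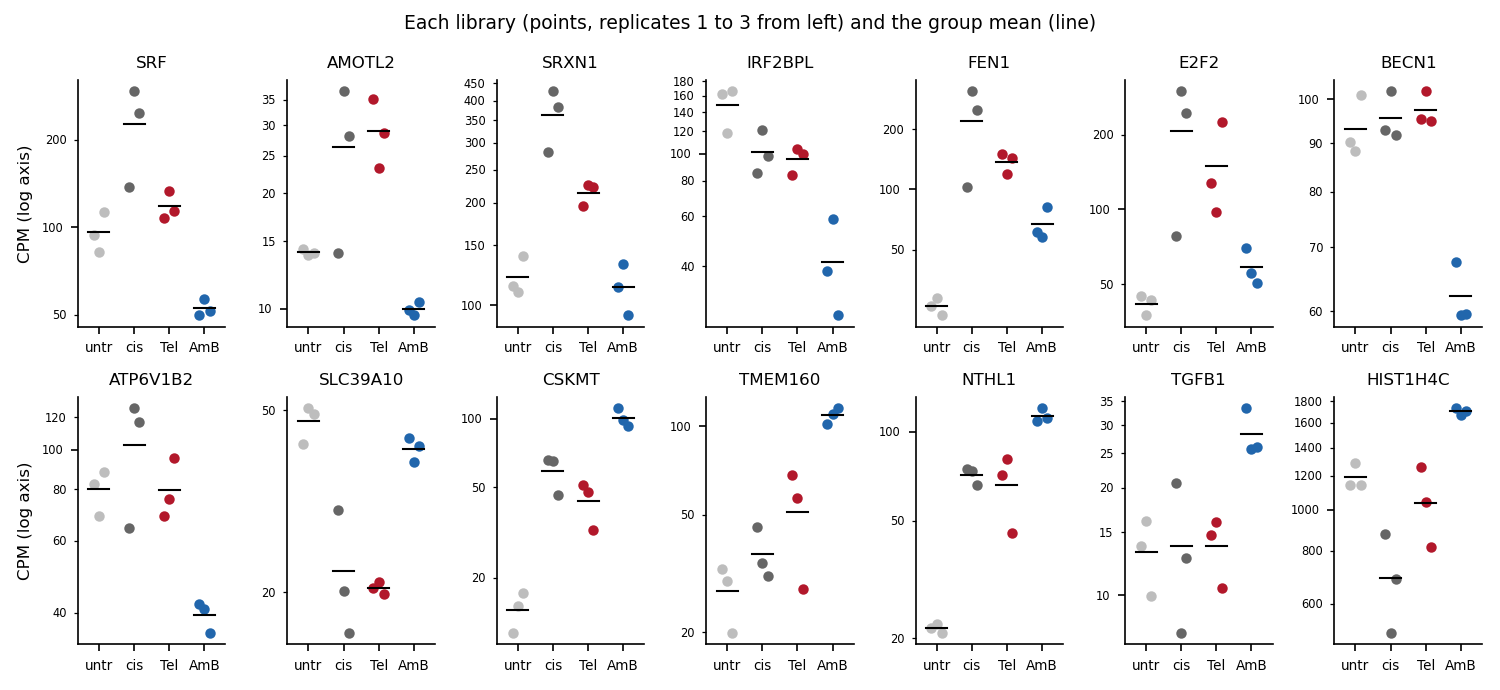
TMM-normalized CPM on a log axis for 14 genes in untreated cells (untr), cisplatin alone (cis), Telmisartan with cisplatin (Tel) and Amphotericin B with cisplatin (AmB), 1 point per library and a line at the mean. The 3 Telmisartan points lie above the 3 Amphotericin B points for SRF, AMOTL2, SRXN1, IRF2BPL, FEN1, E2F2, BECN1 and ATP6V1B2 and below them for the other 6 genes.

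The 11 genes at a higher level with Amphotericin B chosen by p or size were of other kinds. They were 5 protein-coding genes, 4 pseudogenes, 1 mitochondrial tRNA and 1 long noncoding RNA. Adjusted p ran from 0.0659 to 0.188 in edgeR's quasi-likelihood test, with the highest for the noncoding AL360012.1, which was chosen by size alone. SLC39A10, a zinc importer of the plasma membrane, measured 20.4, 21 and 19.8 CPM with Telmisartan and 43.4, 38.5 and 41.7 CPM with Amphotericin B. The libraries of each drug lay close together, with a log2 fold change of −1.02 ± 0.22, and −0.99 without replicate 3. Amphotericin B held the gene near its untreated level (47.2 CPM ± 4.47, SD, n = 3), while Telmisartan libraries sat with cisplatin alone (22.2 CPM ± 7.21, SD, n = 3). CSKMT, the methyltransferase of citrate synthase, measured 51, 47.5 and 32.5 CPM with Telmisartan and 111, 98.7 and 93.2 CPM with Amphotericin B, a log2 fold change of −1.22 ± 0.21 (adjusted p = 0.0659 in edgeR's quasi-likelihood test). It overlaps LBHD1 on the other strand.

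TMEM160 measured 68.4, 56.9 and 28.1 CPM with Telmisartan and 102, 110 and 115 CPM with Amphotericin B, and CCDC167 had a log2 fold change of −1.35. AL136454.1, annotated as protein-coding, measured 11.7, 12.2 and 4.68 CPM against 23.5, 28.9 and 29.8 CPM. In these genes Telmisartan replicate 3 was the lowest library. The other Telmisartan libraries lay below all 3 with Amphotericin B, which the choice of genes required. MT-TV, the mitochondrial tRNA for valine, measured 75, 48.1 and 25 CPM with Telmisartan and 144, 132 and 234 CPM with Amphotericin B. The noncoding AL360012.1 measured 41.8, 32.6 and 2.2 CPM against 61.9, 93.8 and 111 CPM, and its log2 fold change of −1.87 was −1.25 without replicate 3.

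The pseudogenes RPL10P16 (log2 fold change −1.53), RPL23AP48 (−1.65), AC090013.1 (−1.44) and MTCO3P12 (−1.27) can share reads with their parent genes, so their own level is uncertain. All but MTCO3P12, an unprocessed pseudogene, belonged to a wider pattern that was tabulated after the values were seen. Of 230 processed pseudogenes tested, 83 were lower with Telmisartan at an unadjusted p under 0.05 and 3 higher, with a median log2 fold change of −0.64, which was −0.35 without replicate 3. Nuclear protein-coding genes numbered 10068 and had a median of 0.08, or 0.02 without that replicate. Amphotericin B libraries gave 2.1% to 2.31% of their counts to processed pseudogenes, Telmisartan replicates 1 and 2 gave 1.93% and 1.62%, and replicate 3 gave 1.17%. The libraries of the 11 genes higher with Amphotericin B did not overlap, so their direction could hardly turn without replicate 3. Their log2 fold changes without it were −1.46 to −0.80.

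Gene lists are described below by their counts at an unadjusted p under 0.05 and their median log2 fold change, to be read against 13.1% higher and 7.49% lower and a median of 0.061 over all genes. Without Telmisartan replicate 3 the same values over all genes were 5.57% higher, 3.7% lower and 0.010, and counts without it are to be read against those. Counts of positive or negative log2 fold changes are to be read against 6047 positive of all 11113 genes. Signs depend on the scaling, as the median over all genes was 0.38 under scaling by library size only. These counts are not tests of the lists. Among the genes named below, LPCAT3, LNPEP, LRRC8A, TNFRSF10B, NTHL1, FOXM1, HK2, BECN1, CTSA, TGFB1, BRD3, SLC31A1, ATP7A, MT-ND4 and MT-ATP8 overlap another gene, and their reads are uncertain in the same way. Overlaps were looked up only for genes named by rule, so genes picked as examples may overlap another gene too. RNA came from whole cultures, so a lower share of some cells and less of a transcript per cell cannot be told apart.

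The named targets of the drugs gave little to compare. AGTR1 and AGTR2 had 0 counts in all 6 libraries. PPARG had 4, 5 and 4 counts with Telmisartan and 8, 5 and 10 counts with Amphotericin B and was too low to be tested. Of 7 renin-angiotensin genes tested none reached an unadjusted p under 0.05, and the nearest was LNPEP, an aminopeptidase that binds angiotensin IV, with a 95% interval of −1.26 to 0.04 for its log2 fold change. Of 21 genes of PPAR receptors and lipid targets, 1 was higher and 0 were lower, and the median was −0.07, which turned to 0.25 when libraries were scaled by size only.

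Cholesterol export and cholesterol synthesis were 2 separate lists, and the difference between them was not tested. All 6 of the liver X receptor and cholesterol export genes tested had a negative log2 fold change, with a median of −0.54 and −0.55 without replicate 3, and 2 were lower at an unadjusted p under 0.05 (1 without that replicate). APOE, an apolipoprotein, measured 18.4, 26 and 14 CPM with Telmisartan and 28.4, 37.7 and 27.6 CPM with Amphotericin B. LPCAT3, a phospholipid acyltransferase controlled by liver X receptors, measured 10.2, 12.2 and 6.06 CPM against 12.8, 24.9 and 19.4 CPM. In both genes the groups did not overlap but came close. Of 28 cholesterol synthesis genes and SREBP targets, 1 was higher and 3 were lower (3.57% and 10.7%; 0 and 1 without replicate 3), 5 lay below without overlap (17.9%, against 9.86% of all genes) and 0 above, and the median of −0.10 turned to 0.21 (against 0.38 for all genes) under scaling by library size only. FDPS, the farnesyl diphosphate synthase, measured 331, 357 and 224 CPM with Telmisartan and 464, 381 and 424 CPM with Amphotericin B, and SQLE, the squalene epoxidase, had a log2 fold change of 0.62 ± 0.26 with overlap. Without replicate 3 these were −0.30 for FDPS and 0.41 for SQLE.

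Platinum and copper handling genes were tested for 15 of 26 listed. ATP7B, a copper exporter tied to platinum tolerance, had 2, 0 and 3 counts with Telmisartan and 5, 4 and 0 counts with Amphotericin B, which allows no comparison. ATP7A, its relative, had 0, 6 and 9 counts against 3, 3 and 8, and its log2 fold change had a 95% interval of −2.24 to 0.64. ATOX1, the chaperone that hands copper to both, measured 185, 213 and 57 CPM with Telmisartan and 324, 273 and 254 CPM with Amphotericin B. The groups did not overlap, but the log2 fold change of −0.92 ± 0.39 was −0.51 without replicate 3, and ATOX1 overlaps G3BP1 and a pseudogene.

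SLC31A1, the copper importer CTR1, measured 50, 55.2 and 127 CPM with Telmisartan and 40.5, 64.2 and 53.7 CPM with Amphotericin B. Its log2 fold change of 0.58 rested on replicate 3 and was −0.00 without it. COX17, the mitochondrial copper chaperone, gave −0.03 (95% interval −0.96 to 0.91), and SOD1, the copper and zinc superoxide dismutase, gave −0.34 (−0.96 to 0.27). GSTP1, a glutathione transferase, measured 3570, 3920 and 1290 CPM against 5300, 5440 and 4940 CPM, and MT2A, a metallothionein, 68.4, 76.8 and 32.2 CPM against 86, 123 and 95.4 CPM. GCLC, the catalytic subunit of glutathione synthesis, was the 1 member on the Telmisartan side at that unadjusted threshold, with 12.8, 14.9 and 22 CPM against 7.82, 9.62 and 4.47 CPM. Without replicate 3 the log2 fold change of GSTP1 went from −0.84 to −0.48, that of MT2A from −0.80 to −0.48 and that of SOD1 to −0.03. The list held 1 higher and 3 lower, and without replicate 3 it held 1 and 0. The median of the list was −0.24, −0.03 without replicate 3 and 0.08 under scaling by library size only.

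Stress lists were mixed. Of 25 AP-1 and immediate early genes, 5 were higher with Telmisartan and 4 lower, and 4 and 3 without replicate 3. The AP-1 subunit FOSL2 measured 27, 21 and 37.7 CPM with Telmisartan and 5.69, 13.6 and 2.24 CPM with Amphotericin B, and the orphan receptor NR4A2 54.6, 54.1 and 67.4 CPM against 21.3, 33.7 and 26.8 CPM. The early genes FOS and EGR1 lay on the other side. EGR1 measured 65.3, 65.7 and 17.6 CPM with Telmisartan and 99.6, 85.8 and 168 CPM with Amphotericin B, and FOS 49.5, 34.8 and 4.13 CPM against 82.5, 50.5 and 93.2 CPM. Both had log2 fold changes that shrank without replicate 3, from −1.28 to −0.85 for EGR1 and from −1.42 to −0.84 for FOS.

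Of 32 ATF4 and ER stress genes, 8 were higher with Telmisartan and 1 was lower (25% and 3.12%), but by overlap of libraries 5 lay above and 6 below (15.6% and 18.8%, against 12.5% and 9.86% of all genes). Without replicate 3 the counts at that p were 3 and 0, and the median of 0.35 was −0.01. MTHFD2, of mitochondrial folate metabolism, measured 257, 176 and 374 CPM with Telmisartan and 108, 150 and 153 CPM with Amphotericin B, and PSAT1, of serine synthesis, 129, 117 and 142 CPM against 69.7, 95.4 and 73 CPM. SESN2, a target of both ATF4 and p53, measured 168, 186 and 512 CPM against 88.2, 217 and 80.5 CPM, with overlap, and its log2 fold change of 1.18 was 0.47 without replicate 3. The 20 NRF2 targets split evenly, 3 higher and 3 lower, but 2 and 0 without replicate 3. SRXN1, GCLC and TXNRD1 were higher, and the pentose phosphate enzymes PGD, TALDO1 and TKT lower, at log2 fold changes of −0.66, −0.59 and −0.79 that were −0.32, −0.32 and −0.44 without that replicate. Of 21 heat shock chaperones and factors 1 was higher, the transcription factor HSF2, with 102, 109 and 148 CPM against 42, 81 and 61.9 CPM. The 14 ion balance and osmotic stress genes held 1 of each, LRRC8A, a subunit of the volume-regulated anion channel, at a log2 fold change of 1.10 and the aldose reductase AKR1B1 at −0.60. Without replicate 3 these were 0.74 and −0.37, the list held 0 of each, and its median of 0.17 was 0.02.

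For genes of the response to DNA damage the counts depended on Telmisartan replicate 3. Of 25 p53 targets, 8 were higher and 1 was lower (32% and 4.0%), at a median log2 fold change of 0.49, but 0.17 without replicate 3, where 2 were higher and 3 lower (8.0% and 12%). The proapoptotic BBC3 measured 79.1, 74 and 154 CPM with Telmisartan and 27.7, 73 and 20.9 CPM with Amphotericin B, so the groups nearly met. TNFRSF10B, a death receptor, measured 42.9, 41.4 and 82.6 CPM against 13.5, 40.9 and 20.1 CPM, with a log2 fold change of 1.197 that was 0.78 without replicate 3. BAX was lower, with 98.5, 80.1 and 90.6 CPM against 146, 117 and 110 CPM.

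Of 61 DNA repair genes, 13 were higher and 3 lower (21.3% and 4.92%), and without replicate 3 the counts were 5 and 2 (8.2% and 3.28%, against 5.57% and 3.7% of all genes). FEN1, the flap endonuclease, measured 150, 119 and 143 CPM with Telmisartan and 61.2, 57.7 and 82 CPM with Amphotericin B, against 26 CPM ± 2.54 (SD, n = 3) in untreated cells. Its log2 fold change was 1.04 ± 0.29, and 1.0 without replicate 3, but FEN1 overlaps FADS2 and TMEM258. NTHL1, a DNA glycosylase, went the other way with 71.4, 81.2 and 45.4 CPM against 109, 120 and 111 CPM, and PARP1, the sensor of strand breaks, with 299, 277 and 271 CPM against 417, 391 and 361 CPM. BRCA1 owed its log2 fold change of 0.80 to replicate 3 (98, 99.4 and 267 CPM against 90.3, 97.8 and 80.5 CPM) and had 0.14 without it.

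Of 40 G1/S and DNA replication genes, 9 were higher and 2 lower, 5 and 0 without replicate 3, and 13 lay above without overlap (32.5%, against 12.5% of all genes). E2F2 measured 128, 97.2 and 225 CPM with Telmisartan and 69.7, 55.3 and 50.7 CPM with Amphotericin B, and the kinase CDK2 182, 200 and 214 CPM against 135, 131 and 119 CPM. Of 35 G2/M and mitosis genes, 3 were higher, among them the mitotic transcription factor FOXM1 (log2 fold change 0.89 ± 0.30), and 3 were lower, among them CDC20, the activator of the anaphase-promoting complex (−0.87 ± 0.27, and −0.55 without replicate 3). Without that replicate 2 were higher and 1 was lower. Of 16 replication-dependent histone genes tested, 0 were higher and 2 lower, or 0 and 1 without replicate 3. Of the 16, 9 had a positive log2 fold change, and the median of 0.14 was 0.02 without that replicate. HIST1H4C, the abundant one, measured 1260, 1040 and 815 CPM against 1730, 1670 and 1710 CPM. Its log2 fold change of −0.72 was −0.57 without replicate 3. Histone transcripts mostly lack a poly(A) tail, so this kit may count only part of them.

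Signalling and turnover lists held members on both sides. Of 15 NF-kappaB subunits and targets, 14 had a positive log2 fold change, with a median of 0.44, and 0.31 without replicate 3, and 4 were higher and 1 lower, or 1 and 0 without that replicate. TNIP1, an inhibitor of the pathway, measured 25.5, 21.5 and 34.4 CPM with Telmisartan and 15.6, 14.4 and 8.94 CPM with Amphotericin B, and the chemokine CXCL1 lay below, with 11.7, 12.2 and 10.7 CPM against 18.5, 28.9 and 19.4 CPM. Of 25 HIF and hypoxia genes, 7 were higher, among them VHL, ARNT and HK2, and 3 were lower, among them the glycolytic enzymes ENO1 and ALDOA. Without replicate 3 the counts were 2 and 0, and the log2 fold changes went from 0.98 to 0.50 for VHL, from 0.80 to 0.51 for ARNT, from −0.68 to −0.34 for ENO1 and from −0.66 to −0.38 for ALDOA. VHL, which marks HIF for breakdown, measured 99, 101 and 214 CPM against 78.9, 89.8 and 43.2 CPM. HK2, the hexokinase, measured 13.8, 9.39 and 13.8 CPM against 5.69, 4.81 and 6.71 CPM.

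Of 34 autophagy genes, 7 were higher and 2 lower, and the median was 0.39. Without replicate 3 the counts were 2 and 1 and the median 0.11. BECN1, of the kinase complex that starts autophagosomes, measured 95.4, 102 and 95 CPM with Telmisartan and 67.6, 59.4 and 59.6 CPM with Amphotericin B, and its log2 fold change of 0.65 ± 0.16 was 0.66 without replicate 3. ULK1, the initiating kinase, measured 19.9, 28.2 and 37.4 CPM against 12.8, 12.8 and 8.94 CPM. The lysosomal list had 2 higher and 4 lower of 28, and 1 and 2 without replicate 3. ATP6V1B2, of the proton pump, measured 68.9, 75.7 and 95.2 CPM against 42, 40.9 and 35.8 CPM, whereas the protease CTSA measured 79.1, 88.9 and 46.2 CPM against 134, 118 and 137 CPM. The median of lysosomal genes was −0.25, and 0.03 under scaling by library size only. Proteasome subunits had 0 higher and 4 lower of 35, or 0 and 1 without replicate 3, with a median of −0.32, and −0.15 without it.

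Structural and adhesion genes mostly had negative log2 fold changes. Of 19 cadherin, adhesion and mesenchymal genes tested, 0 were higher and 4 were lower (21.1%), with a median of −0.42. Without replicate 3 the counts were 0 and 1 and the median −0.30. FN1, fibronectin, measured 31.1, 7.18 and 7.43 CPM with Telmisartan and 34.8, 46.5 and 35.8 CPM with Amphotericin B. Of 30 actin, SRF and YAP target genes, 4 were higher and 2 lower, 2 and 0 without replicate 3, and 8 of the 30 had a positive log2 fold change, SRF and AMOTL2 among them. MYL9, a myosin light chain controlled by SRF, measured 413, 404 and 98.8 CPM against 705, 508 and 581 CPM, and its log2 fold change of −0.98 was −0.55 without replicate 3. The list's median of −0.18 was −0.07 without replicate 3 and 0.08 under scaling by library size only. Of 17 TGF-beta and SMAD genes, 6 were higher and 5 lower at a median of 0.08, but without replicate 3 the counts were 1 and 2 and the median −0.14. The ligand TGFB1 measured 14.8, 16 and 10.5 CPM against 33.4, 25.7 and 26.1 CPM, and SKIL, an inhibitor of SMADs, 39.3, 27.1 and 63.6 CPM against 24.9, 19.2 and 20.1 CPM, where its log2 fold change of 1.04 was 0.63 without replicate 3.

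Genes of gene expression itself split by kind. Of 140 zinc finger genes of chromosome 19, 36 were higher with Telmisartan and 1 was lower (25.7% and 0.714%), at a median log2 fold change of 0.53, and without replicate 3 the counts were 15 and 2 (10.7% and 1.43%, against 5.57% and 3.7% of all genes) and the median 0.14. ZFP82 measured 10.7, 5.52 and 14.9 CPM with Telmisartan and 3.56, 3.21 and 0.0 CPM with Amphotericin B. Of 21 transcription elongation genes, 4 were higher and 0 lower, or 1 and 0 without replicate 3. Among them was BRD3, an acetylated histone reader, with 164, 176 and 285 CPM against 98.8, 115 and 70.1 CPM.

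Translation and respiration genes had negative medians that shrank without replicate 3. Of 84 cytosolic ribosomal protein genes, 3 had a positive log2 fold change, 23 lay below without overlap (27.4%, against 9.86% of all genes) and 6 were lower at an unadjusted p under 0.05 (7.14%, against 7.49% of all genes), or 0 without replicate 3. Their summed level was 214000, 237000 and 93900 CPM with Telmisartan and 251000, 239000 and 241000 CPM with Amphotericin B. Replicates 1 and 2 were thus close to the Amphotericin B libraries and replicate 3 was far below, and the median of −0.40 became −0.09 without it. For 68 nuclear respiratory chain subunits the summed level was 21400, 22400 and 8820 CPM against 25100, 21700 and 24900 CPM, where replicates 1 and 2 overlap the Amphotericin B libraries. Of these genes 0 were higher and 8 lower (11.8%), or 1 and 4 without replicate 3, and the median of −0.41 became −0.10. Mitochondrial ribosomal protein genes had 3 higher and 11 lower of 75, or 2 and 3 without replicate 3, and a median of −0.23, which was −0.07 without that replicate and 0.04 under scaling by library size only.

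The 13 protein-coding genes of the mitochondrial genome had 2 higher and 4 lower, or 1 and 5 without replicate 3. Their summed level was 31200, 36100 and 32400 CPM with Telmisartan and 40500, 36400 and 52600 CPM with Amphotericin B. MT-ND4, which overlaps MT-ND4L, measured 5180, 5550 and 3940 CPM with Telmisartan and 8440, 7150 and 13400 CPM with Amphotericin B, and MT-CO1 3800, 3890 and 1440 CPM against 6600, 4840 and 8670 CPM. MT-ATP8, which overlaps MT-ATP6 on the same strand, lay on the other side with 1320, 2020 and 3680 CPM against 962, 973 and 1030 CPM. In Telmisartan replicate 3 the share of mitochondrial ribosomal RNA was low while this sum was between those of replicates 1 and 2. The part of that share in these values was not tested. The log2 fold change of MT-ATP8, 1.25, was 0.76 without replicate 3. Small RNAs without a poly(A) tail could be tested for 3 of 21 listed, and RMRP, the RNA of a mitochondrial and nucleolar RNase, measured 82.7, 96.1 and 4.95 CPM against 149, 73 and 192 CPM, with overlap. Its log2 fold change of −1.21 was −0.63 without replicate 3.

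**Figure D4:**
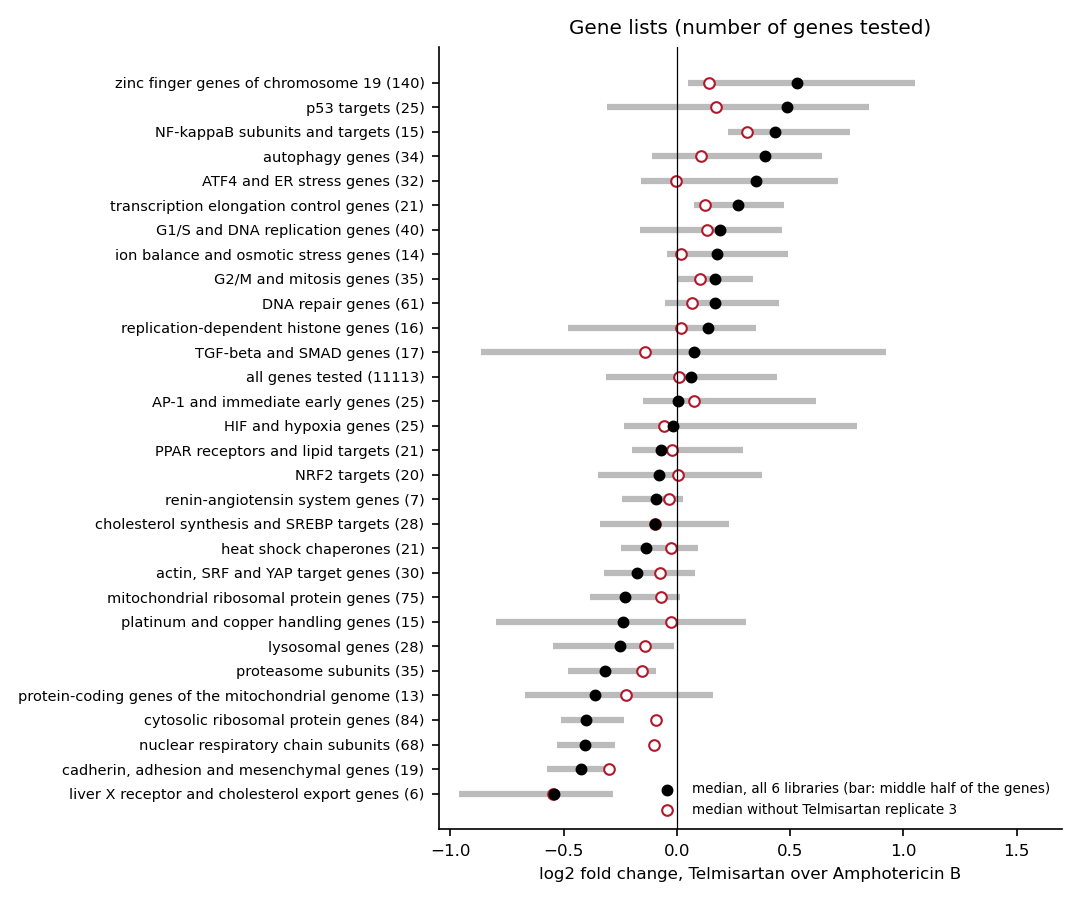
Median log2 fold change of Telmisartan over Amphotericin B for each gene list with at least 6 genes tested and for all genes, with all 6 libraries (filled), without Telmisartan replicate 3 (open) and the range from the 25th to the 75th percentile of the genes as a bar. The medians run from −0.54 for liver X receptor and cholesterol export genes to 0.53 for zinc finger genes of chromosome 19, and most open points lie nearer to 0.

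Leaving out Telmisartan replicate 3 lowered the number of genes at an unadjusted p under 0.05 to 619 higher (5.57%) and 411 lower (3.7%), and no gene passed the adjusted threshold in the 15-library fit. Of the 1161 genes past a fold of 2, 568 were past it in the same direction without that library and 10 turned sign. When the fit held only the other two Telmisartan and the 3 Amphotericin B libraries, 33 genes passed an adjusted p under 0.05 in edgeR's quasi-likelihood test, 16 higher and 17 lower with Telmisartan. This fit was added after the data were seen.

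The 16 higher genes held 15 nuclear protein-coding genes, near the share over all genes tested (10068 of 11113). SRF had an adjusted p of 0.00541 in that edgeR fit, IRF2BPL 0.0106, SRXN1 0.0114, FEN1 0.0119, AMOTL2 0.033, and ZNF473 0.00688. PTP4A1, a phosphatase, measured 707, 642 and 1290 CPM with Telmisartan and 316, 445 and 306 CPM with Amphotericin B, the histone chaperone ASF1B 127, 104 and 166 CPM against 69, 64.2 and 58.9 CPM, and RCC2, a regulator of mitosis, 197, 113 and 189 CPM against 74, 67.4 and 92.4 CPM. These 3 were chosen after their values were seen. The 17 lower genes held 5 of the mitochondrial genome and 5 pseudogenes, along with CSKMT (adjusted p of 0.0101 in edgeR), the complex I subunit NDUFA11 (0.0335), the snoRNA host SNHG5 (0.00688) and the minor spliceosome RNA RNU4ATAC (0.0101). All 11113 genes tested held 13 protein-coding genes and 11 tRNAs of the mitochondrial genome and 230 processed pseudogenes.

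**Figure D5:**
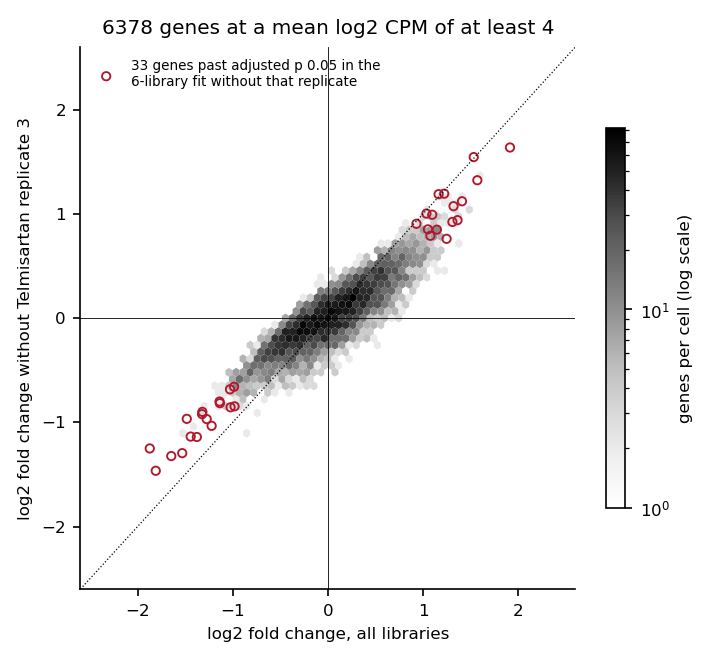
Log2 fold change of Telmisartan over Amphotericin B with all libraries (x axis) against the same without Telmisartan replicate 3 (y axis) for 6378 genes at a mean of at least 4 log2 CPM, as the number of genes per cell on a log grey scale, with the 33 genes that passed an adjusted p under 0.05 in the fit of 5 libraries in red. Both axes share 5 libraries, on which the 33 genes were called, and most of these genes lie nearer to 0 on the y axis.

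Set on a scale where untreated cells average 0 and cisplatin alone averages 1, over the 4967 genes (44.7%) past the adjusted threshold between those conditions, Telmisartan libraries stood at 0.804, 0.772 and 0.673 and Amphotericin B libraries at 0.776, 0.671 and 0.707. The groups overlapped, at 0.750 ± 0.069 and 0.718 ± 0.054 (SD, n = 3 each). Libraries with cisplatin alone ranged from 0.848 to 1.178. The genes were chosen on the untreated and cisplatin libraries, so a position below 1 is no finding, and only the 2 combinations are compared here.

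Against cisplatin alone, 0 of 11113 genes (0.0%) passed an adjusted p under 0.05 with Telmisartan and 1469 (13.2%) with Amphotericin B in edgeR's quasi-likelihood test. The 2 comparisons share the cisplatin libraries, so their values are set side by side only. The cisplatin libraries were themselves split. Mitochondrial ribosomal RNA made up 13.7%, 5.61% and 3.41% of their counts, against 12.3% to 14.8% with Amphotericin B. Cisplatin replicate 1 lay 0.706 to 0.746 log2 CPM from the Amphotericin B libraries, and cisplatin replicates 2 and 3 lay 1.003 to 1.088 from them. The part of this split in the counts of 0 and 1469 was not tested. SRF differed from cisplatin alone by −0.94 on the log2 scale with Telmisartan and by −2.10 with Amphotericin B, SRXN1 by −0.76 and −1.69, FEN1 by −0.69 and −1.72, and AMOTL2 by 0.13 and −1.40. For the 13 named genes that were higher with Telmisartan, the difference from cisplatin ran from −0.94 to 0.56 with Telmisartan and from −2.10 to −0.54 with Amphotericin B, and it passed the adjusted threshold for 0 and 12 of them. For the 11 that were higher with Amphotericin B it ran from −0.53 to 0.46 and from 0.74 to 2.22, past the threshold for 0 and 9. These genes were chosen on the same Amphotericin B and Telmisartan libraries, so the counts describe them and test nothing further.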

How the data were processed

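Per the labels, total RNA of IGROV-CP20 cells was sequenced in 15 libraries (QuantSeq 3′ kit, single-end reads). The authors deposited raw read counts per Ensembl gene, without normalization. The submitters' processing notes name STAR 2.3.0, HTSeq and hg19, and the strand setting is not given in the sources used here. Of 47634 identifiers in each table, 45776 had a name in GENCODE 29. Coordinates are given only for the upstream stretches, which come from RefSeq on GRCh38.p14, whereas the counts were made on hg19. The tables' totals were 1510620 to 2983548 counts in the 6 libraries compared.

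The filterByExpr function of edgeR 4.0.16 (R 4.3.3) kept 11113 genes. TMM factors and a quasi-likelihood model with 1 term per condition were fitted on all 15 libraries, with Benjamini-Hochberg adjustment over all genes and a threshold of 0.05. CPM are TMM-normalized, and log2 CPM used a prior count of 2. Differences are Telmisartan minus Amphotericin B. Alternatives used limma 3.58.1, DESeq2 1.42.0, other scalings, filters and left-out libraries, and scripts were tested on simulated data. Tables and figures used Python 3.11.15.

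The comparison, the gene lists and the alternatives were chosen with earlier results of these data known. Named genes follow rules: at a mean of at least 4 log2 CPM, the 10 smallest p in each direction among genes whose libraries do not overlap and the 3 largest fold changes in each direction, the 2 smallest p of each list, and copper, angiotensin and PPAR genes. Other genes named were picked as examples after their values were seen. Replicates of a group differed by more than counting error (chi-square per degree of freedom 3.43 to 44.1). A few members of the lists are not reported here by name.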

Additional observations from a re-analysis of the deposited data

How the results depend on the processing

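The count of genes at an adjusted p under 0.05, 0 in the report, was 121 at a threshold of 0.1, 460 with edgeR's likelihood ratio test, 184 with DESeq2, 2 with limma-voom, 7 with sample quality weights, 856 without a filter and 3 once each library's mitochondrial ribosomal RNA entered as a covariate. It ranged from 0 to 17 when 1 library at a time was left out (17 without Telmisartan replicate 1) and from 0 to 33 in the 6-library fits. The replicate block gave 1 gene. Same-numbered libraries did not deviate together (correlations 0.045, −0.123 and −0.098), so the numbers were not taken to pair the samples, and no Telmisartan library correlated best with its own number. At an unadjusted p under 0.05, the 1451 genes higher with Telmisartan became 866 with quality weights, 2647 under scaling by library size only, 2282 without a filter, 907 with only the 6 libraries, 684 with the replicate block on those 6, 656 with the covariate and 590 in the 6-library fit without Telmisartan replicate 3, and ranged from 619 to 1774 over left-out libraries (619 without Telmisartan replicate 3). The 832 lower became 311 under scaling by library size only, 1486 without a filter and 471 with the covariate, and ranged from 411 to 1084 (411 without Telmisartan replicate 3). The higher share of these calls was 63.6%, 53.3% with RLE factors, 55.1% with upper quartile factors and 89.5% with library size only, where the median over all genes moved from 0.06 to 0.38. Genes without overlap became 2143 higher and 515 lower under library size only, and 898 were higher at a mean of at least 4 log2 CPM. The Telmisartan minus Amphotericin B position, 0.03 on the scale from untreated to cisplatin, was −0.04 over genes at a mean of at least 5 log2 CPM. Over those genes the mean difference between libraries was 0.40 log2 CPM within Amphotericin B and 0.58 between the drugs, against 0.732 and 0.815 over all genes. Over all genes it was 0.727 within Telmisartan, and 0.549 without replicate 3. SLC31A1 (log2 fold change 0.58) ranged from −0.001 without Telmisartan replicate 3 to 0.813 without replicate 1, and was −0.02 in the 6-library fit without replicate 3. COX17 turned from −0.03 to 0.311 with quality weights, 0.163 under library size only, 0.339 without Amphotericin B replicate 3 and 0.385 in the 6-library fit without Telmisartan replicate 3, and over left-out libraries ranged from −0.41 (without Telmisartan replicate 2) to 0.407 (without replicate 3). Of the 82 named genes' values under other settings, 1260 kept direction and side of the threshold, 127 passed it anew and 7 turned sign. The cause of these moves was not tested.

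At these depths, genes with few counts, such as ATP7B, AGTR1 and PPARG, could not be compared. Telmisartan replicate 3 holds much of the spread of its group, and its depth, mitochondrial ribosomal RNA share and expression all differ from the other two, so these cannot be told apart from one another.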
